A study of Mus musculus with 9 samples.

Results

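The MHC class II presentation genes measured here are 9 genes: the class II chains H2-Aa, H2-Ab1 and H2-Eb1, the invariant chain Cd74, the peptide-loading factors H2-DMa, H2-DMb1, H2-DMb2 and H2-Oa, and the transactivator Ciita. They were found by symbol in a table of 52550 genes, and all 9 were among the 22430 genes that passed the filter on low counts. Messenger RNA was sequenced from ear dermis of wild-type C57BL/6 mice (C57BL/6J in the study's methods), aged 8 weeks according to the labels, in 3 groups of 3 libraries. VAS+H2O mice (control) had vaseline on the ear for 5 days and distilled water by gavage for 10 days. IMQ+H2O mice (the psoriasis-like model) had imiquimod cream, a Toll-like receptor 7 agonist, on the ear for 5 days and water by gavage for 10 days. IMQ+XYF mice had imiquimod on the same 5 days and were given Xiao-Yin-Fang (XYF), a decoction made from Chinese medicinal herbs, for 10 days by gavage at 23.3 mg/g in 200 µl. The treatment thus began before the cream, and the water groups carried the same gavage. The RNA was taken from ear sheets of more than 1 mouse, and it was not clear whether each library pooled mice, so that p-values measure the spread between these libraries.

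MHC class II molecules are dimers of an alpha and a beta chain that carry peptides from endosomes to the cell surface, where CD4+ T cells read them. In the endoplasmic reticulum the chains assemble around the invariant chain, whose remnant in the groove is later exchanged for peptide by H2-DM, a dimer that H2-DO restrains. Transcription of these genes depends on Ciita, which does not bind DNA itself but docks on factors bound to the X and Y boxes before each start site. In skin, class II is known from dendritic cells, Langerhans cells and macrophages, and keratinocytes can acquire it under interferon-gamma.

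Promoter sequences are shown first, to let the letters of these boxes be seen where they occur. RefSeq promoter windows (GRCm38.p6, 300 bases each) matched 6 of the 9 members, and none was at hand for H2-Ab1, Cd74 and Ciita. The lines below run 5′ to 3′ on the strand of the gene, and capitals mark the letters searched: ATTGG or its reverse complement CCAAT for the Y box, AACNGATG for the X box, and TGACGTCA for the cyclic AMP response element, all on both strands and without overlap among the matches shown. H2-Aa (chr17:34287854-34287953, minus strand), H2-Eb1 (chr17:34305737-34305836, plus strand) and H2-DMb2 (chr17:34145119-34145218, plus strand) are given from 130 to 31 bases before the RefSeq start. For H2-DMb1 (chr17:34153088-34153117, plus strand) the 30 bases around the X box are given, because GENCODE places an exon there.
H2-Aa: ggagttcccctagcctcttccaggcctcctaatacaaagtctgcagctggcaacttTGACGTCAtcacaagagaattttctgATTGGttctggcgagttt
H2-Eb1: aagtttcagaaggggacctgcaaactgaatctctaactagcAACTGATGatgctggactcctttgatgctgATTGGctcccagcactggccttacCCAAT
H2-DMb2: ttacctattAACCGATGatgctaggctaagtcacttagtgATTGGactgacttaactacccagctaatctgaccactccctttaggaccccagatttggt
H2-DMb1: gtttacctagtAACTGATGatgctaggctg

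The 6 members had 7 windows, since H2-DMa has 2. The Y box letters occurred in 6 of the 7, against 37.4% of 32851 RefSeq windows. They lay 43 to 90 bases before the start, counting the forward matches, except in H2-DMa, where they lay 198 bases before it in the window that held them. The X box letters occurred in 3 of the 7, those of H2-Eb1, H2-DMb1 and H2-DMb2, against 2.32% of windows, and 0.880% of windows held both. From the start of the X box letters to the start of the Y box letters there were 30 bases in H2-Eb1 and 31 in each of H2-DMb1 and H2-DMb2. The 30 bases around the X box were identical at 27 positions between H2-DMb1 and H2-DMb2 and at 21 between H2-DMb2 and H2-Eb1. H2-Aa held the cyclic AMP response element letters, present in 1.79% of windows. A match describes the letters only. The X box search accepted 1 pattern, so a window without a match was not shown to lack an X box.

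Across the 9 libraries total counts ran from 28756305 to 79836881, and a gene with no count lay under a floor of 3 counts, or 0.0373 to 0.103 CPM (counts scaled to a common library total), counting error only. Values are CPM scaled by TMM factors. Changes are log2 fold changes from the quasi-likelihood test of edgeR, p-values were adjusted over all 22430 genes (Benjamini-Hochberg), and a gene was called where the adjusted p was at most 0.05 and the absolute log2 fold change at least 1. The fibroblast gene Dcn stood between 4547 and 6282 CPM in every library. The basal keratinocyte gene Krt14 stood between 724 and 3367 CPM and was highest in IMQ+XYF 1, and transcripts of muscle and cartilage were present too, so that the sheets held transcripts of other tissues as well. In such bulk tissue fewer cells of a type and less RNA per cell cannot be told apart.

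In the dermis the group means of the class II chains, Cd74, H2-DMa and H2-DMb1 were highest in VAS+H2O and lowest in IMQ+XYF. The IMQ+H2O libraries spread widely. For each of these genes they overlapped both other groups, except for Cd74, where they did not overlap IMQ+XYF. None of the 9 members was called in any of the 3 comparisons, in which 0.994% (by imiquimod), 0.00892% (by XYF) and 1.2% (IMQ+XYF against VAS+H2O) of all tested genes were. Between IMQ+XYF and VAS+H2O, 7 of the 9 were lower without overlap, against 10.3% of all tested genes, and 1 of these 7 was H2-Oa, at 0 to 35 counts per library. The fitted changes of the other 6 lay between −0.68 and −1.07 on the log2 scale. Together the 9 genes took 0.157% ± 0.026 (SD, n = 3) of scaled counts in VAS+H2O, 0.120% ± 0.038 in IMQ+H2O and 0.0791% ± 0.0215 in IMQ+XYF.

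H2-Aa encodes the alpha chain of the A molecule (chromosome 17, 34282744 to 34287823, minus strand, GRCm38). It read 317, 427 and 334 CPM in VAS+H2O, 220, 364 and 203 CPM in IMQ+H2O, and 188, 111 and 214 CPM in IMQ+XYF. The second IMQ+H2O library stood within the control range while the other two lay below it, and every IMQ+XYF library lay below every control. H2-Ab1, the beta chain of the same molecule (chromosome 17, 34257689 to 34269419), read 247, 326 and 297 CPM in VAS+H2O, 188, 317 and 195 CPM in IMQ+H2O, and 163, 121 and 199 CPM in IMQ+XYF. The order of the libraries was close to that of H2-Aa.

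H2-Eb1 encodes the beta chain of the E molecule (chromosome 17, 34305867 to 34316674). C57BL/6 mice are known to lack a working alpha chain for it, so that no E molecule reaches the surface, and the entry for that gene, H2-Ea-ps, held no count in 8 of the 9 libraries and 3 counts in IMQ+XYF 2. H2-Eb1 itself was abundant at 203, 276 and 234 CPM in VAS+H2O, 141, 256 and 146 CPM in IMQ+H2O, and 138, 87.9 and 155 CPM in IMQ+XYF. Its share of the 3 summed chains stayed between 25.7% and 28.2% in all libraries. The antisense gene Gm20513 overlaps it, and whether the counting used the strand was not stated.

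The 3 chains summed to between 767 and 1029 CPM in VAS+H2O, 543 and 937 CPM in IMQ+H2O, and 320 and 567 CPM in IMQ+XYF. By imiquimod, the fitted change was −0.45 ± 0.29 (SE) for H2-Aa, −0.31 ± 0.24 for H2-Ab1 and −0.39 ± 0.28 for H2-Eb1, with adjusted p between 0.396 and 0.490. By XYF, the change was −0.62 for H2-Aa with a 95% confidence interval of −1.28 to 0.04, −0.54 for H2-Ab1 (−1.09 to 0.02) and −0.52 for H2-Eb1 (−1.15 to 0.12), with adjusted p of 0.440, 0.431 and 0.490. Between IMQ+XYF and VAS+H2O the changes were −1.07 ± 0.29 for H2-Aa (adjusted p = 0.0974), −0.85 ± 0.24 for H2-Ab1 (0.112) and −0.91 ± 0.28 for H2-Eb1 (0.131). On the linear scale the last set corresponds to −52.5%, −44.5% and −46.7%, and none of the 3 passed the threshold.

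Cd74, the invariant chain (chromosome 18, 60803848 to 60812652), was the most abundant member. It read 489, 733 and 615 CPM in VAS+H2O, 363, 633 and 411 CPM in IMQ+H2O, and 305, 207 and 361 CPM in IMQ+XYF. The highest IMQ+XYF library lay just under the lowest IMQ+H2O library, 361 against 363 CPM, so that these groups did not overlap, and the other IMQ+H2O values lay above. By XYF the change was −0.69 (95% confidence interval −1.30 to −0.08), with an unadjusted p of 0.0316 and an adjusted p of 0.396. Between IMQ+XYF and VAS+H2O it was −1.07 ± 0.27 with an adjusted p of 0.0801, the lowest of the 9 members. By imiquimod it was −0.39 ± 0.27 with an adjusted p of 0.440.

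The ratio of Cd74 to the chains varied little. Cd74 amounted to 68.7 ± 4.3 CPM per 100 CPM of the 3 chains in VAS+H2O, 69.7 ± 5.1 in IMQ+H2O and 63.6 ± 1.0 in IMQ+XYF (SD, n = 3 each), and the range in IMQ+XYF, 62.6 to 64.7, overlapped that of VAS+H2O, 63.7 to 71.2, but not that of IMQ+H2O, 66.0 to 75.5.

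**Figure D1:**
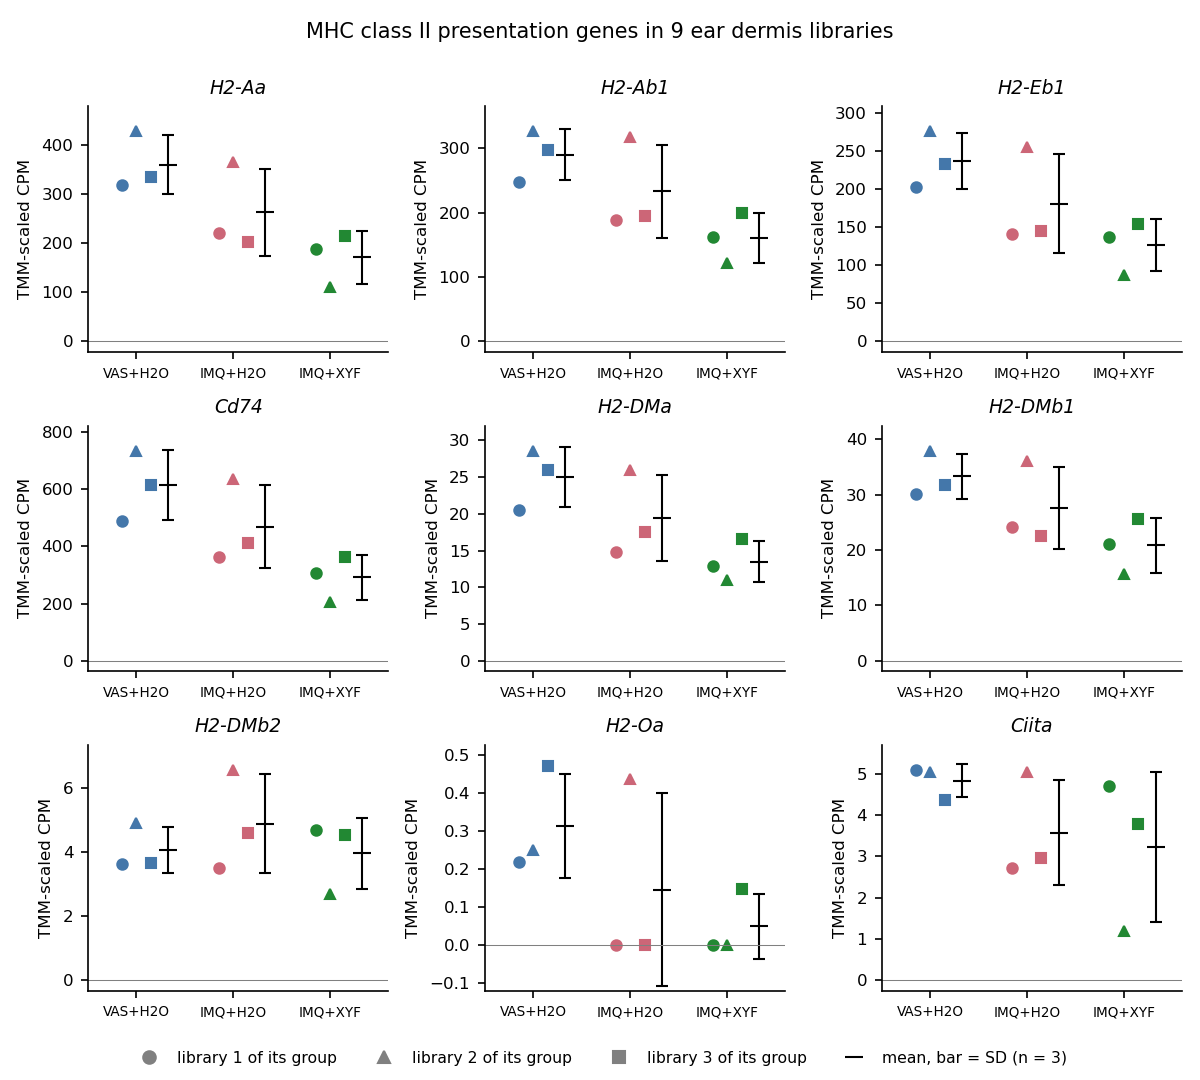
TMM-scaled CPM of each of the 9 genes (vertical axes, separate scales, in scaled CPM) in the 9 libraries, by group on the horizontal axis. Circles, triangles and squares are the libraries 1, 2 and 3 of a group, and the black marks are the mean and SD of 3 libraries. For H2-Aa, H2-Ab1, H2-Eb1, Cd74, H2-DMa and H2-DMb1 all IMQ+XYF libraries lie under all VAS+H2O libraries, and the second IMQ+H2O library lies near the controls.

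H2-DMa and H2-DMb1 encode the alpha and beta chains of H2-DM. H2-DMa (chromosome 17, 34119541 to 34139101) read 20.5, 28.6 and 26.0 CPM in VAS+H2O, 14.8, 26.0 and 17.6 CPM in IMQ+H2O, and 12.9, 11.0 and 16.6 CPM in IMQ+XYF. H2-DMb1 (chromosome 17, 34153072 to 34160230) read 30.2, 37.9 and 31.8 CPM, then 24.2, 36.0 and 22.6 CPM, then 21.2, 15.7 and 25.7 CPM in the same order. Both repeated the order of the chains, with the second IMQ+H2O library among the controls and IMQ+XYF 2 the lowest of all.

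By imiquimod the fitted change was −0.36 ± 0.24 for H2-DMa and −0.27 ± 0.23 for H2-DMb1, with adjusted p of 0.411 and 0.522. By XYF the values were −0.53 ± 0.24 and −0.41 ± 0.23, with adjusted p of 0.431 and 0.501. Between IMQ+XYF and VAS+H2O they were −0.89 ± 0.24 (adjusted p = 0.0956) and −0.68 ± 0.23 (0.156). The gene model of H2-DMa overlaps Brd2, which lies on the other strand, so its reads are uncertain in part.

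H2-DMb2, a second beta chain gene beside H2-DMb1 (chromosome 17, 34143307 to 34151555), showed no such order. It read 3.64, 4.89 and 3.64 CPM in VAS+H2O, 3.51, 6.55 and 4.58 CPM in IMQ+H2O, and 4.68, 2.68 and 4.51 CPM in IMQ+XYF, and all 3 groups overlapped. Its fitted change was 0.27 ± 0.30 by imiquimod, −0.30 ± 0.30 by XYF and −0.03 ± 0.30 between IMQ+XYF and VAS+H2O (95% confidence interval −0.70 to 0.64), with adjusted p of 0.636, 0.700 and 0.974. Its share of H2-DMb1 plus H2-DMb2 was 10.3% to 11.4% in VAS+H2O, 12.7% to 16.9% in IMQ+H2O and 14.6% to 18.1% in IMQ+XYF, so that every imiquimod library lay above every control. That share was computed after the values were seen and is a description. The annotated transcripts of the pair share 22.7% of the 50-base stretches of H2-DMb1 and 21.2% of those of H2-DMb2. How reads with several alignments were counted was not stated, so the split between the pair is uncertain.

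H2-Oa, the alpha chain of H2-DO (chromosome 17, 34092340 to 34095234), was near the limit of detection. Its reads numbered 9, 9 and 35 in the VAS+H2O libraries, 0, 18 and 0 with imiquimod and water, and 0, 0 and 9 with imiquimod and XYF. In CPM the lowest control was at 0.218 and the highest IMQ+XYF library at 0.146, so these groups did not overlap, although the library totals differ and 9 counts occurred in both. The fitted changes had standard errors of 1.47 to 1.65 and adjusted p of 0.424 or higher. A loss could not be told from a low level at this depth.

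Ciita, the transactivator (chromosome 16, 10480059 to 10528418), was a low transcript. It read 5.09, 5.06 and 4.37 CPM in VAS+H2O, 2.72, 5.05 and 2.96 CPM in IMQ+H2O, and 4.70, 1.20 and 3.80 CPM in IMQ+XYF. The second IMQ+H2O library again stood with the controls, and IMQ+XYF 2 was the lowest. The groups overlapped in all comparisons. The fitted change was −0.43 ± 0.45 by imiquimod, −0.14 ± 0.45 by XYF and −0.57 ± 0.45 between IMQ+XYF and VAS+H2O, with adjusted p of 0.615, 0.918 and 0.559, and the interval of the last, −1.59 to 0.44, covers the changes of the chains. Ciita is known to start from separate promoters in dendritic cells, B cells and interferon-treated cells, which counts per gene do not separate, and its 3′ part overlaps Dexi on the other strand.

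Per kilobase of merged exon the order of the levels was Cd74, H2-Eb1, H2-Ab1, H2-Aa, H2-DMb1, H2-DMa, H2-DMb2, Ciita and H2-Oa in VAS+H2O. The order depends on the merged length of all annotated exons, and which transcripts were present was not measured. That length was 3798 bases for H2-Aa, 2568 for H2-Ab1, 1944 for H2-Eb1, 3448 for H2-DMa and 1681 for H2-DMb1. Without this scaling H2-Aa had the highest mean of the chains in VAS+H2O, 359 CPM against 290 for H2-Ab1 and 238 for H2-Eb1. In that group Cd74 stood at 365 ± 73 CPM per kb, H2-Eb1 at 122 ± 19, H2-Ab1 at 113 ± 16 and H2-Aa at 94.6 ± 15.6, where the SDs of the 3 chains overlap. The genes are measured in the same libraries. Per kilobase within them, H2-Eb1 was above H2-Ab1 and H2-Ab1 above H2-Aa in 3 of 3 controls. H2-Aa was the lowest chain per kilobase in all 9 libraries, and the order of H2-Eb1 and H2-Ab1 varied in the other groups. H2-DMb1 followed at 19.8 ± 2.4 CPM per kb, H2-DMa at 7.26 ± 1.19, H2-DMb2 at 2.32 ± 0.41, Ciita at 0.508 ± 0.043 and H2-Oa at 0.222 ± 0.097, each below its predecessor by more than their SDs. The same order held in the means of IMQ+H2O and of IMQ+XYF, where Cd74 stood at 279 ± 86 and 173 ± 46 CPM per kb.

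Read over the list, imiquimod gave 8 members below and 1 above 0, with a median change of −0.39 against −0.02 over all tested genes. By the same test 0 of the 9 members reached an unadjusted p under 0.05 in the lower direction, against 10.8% of all genes, and 0 were lower without overlap, against 16.5%. Each of the 9 libraries was left out in turn. In 8 of these fits 0 members had an unadjusted p under 0.05 with lower levels, against 7.06% to 12.4% of all genes. In the fit without IMQ+H2O 2 there were 7, against 8.97% of genes, with a median change of −0.67. Without IMQ+H2O 1 the median was −0.23, and none of the 9 fits gave a call.

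By XYF all 9 fitted changes lay below 0, with a median of −0.53 against 0.01 over all genes. Only Cd74 had an unadjusted p under 0.05 and groups apart, that is 1 of 9 against 5.39% and 8.74% of all genes in the lower direction. The median moved to −0.18 without IMQ+H2O 2 and to −0.34 without IMQ+XYF 2, and without either of these libraries or IMQ+XYF 1 no member had an unadjusted p under 0.05. Without IMQ+XYF 3 there were 5 such members, without IMQ+H2O 1 there were 3 and without IMQ+H2O 3 there were 2. The shares of all genes in these fits were 5.84%, 3.97% and 3.76%.

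Between IMQ+XYF and VAS+H2O all 9 fitted changes lay below 0, with a median of −0.89 against −0.02 over all genes. The 3 chains, Cd74, H2-DMa and H2-DMb1, 6 of the 9, had an unadjusted p under 0.05, where 8.76% of all genes were that far lower, beside the 7 of 9 without overlap. Leaving out each library in turn gave 5 to 7 such members, against 6.39% to 9.5% of all genes. DESeq2, the tool named in the study's methods, called H2-Aa (−1.04, adjusted p = 0.0136) and Cd74 (−1.04, adjusted p = 0.00720) in this comparison, where it called 1.54% of the genes with an adjusted p in the lower direction. By DESeq2, H2-Ab1, H2-Eb1 and H2-DMa also had adjusted p under 0.05, of 0.0292, 0.0411 and 0.0175, with changes smaller than the fold limit. Since the comparisons share libraries, their values are not independent of each other. The members also varied together from library to library. Counts of members, in this and the other comparisons, are therefore not counts of independent genes.

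**Figure D2:**
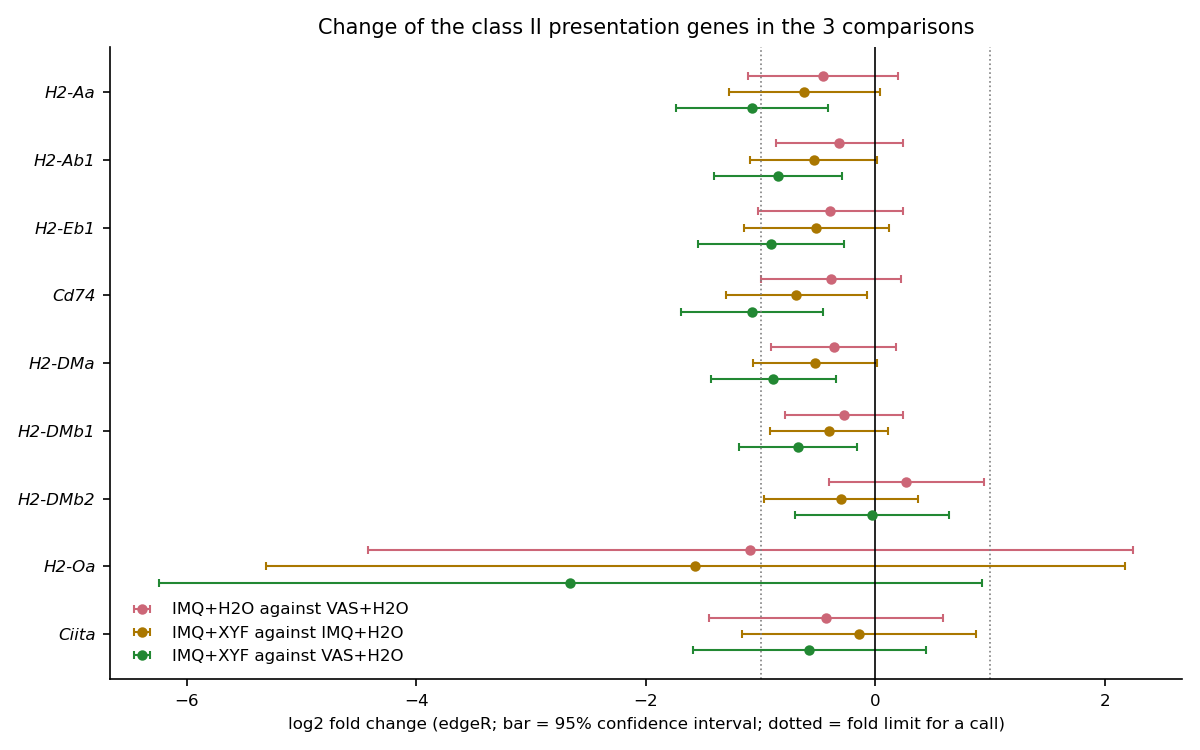
Log2 fold change of each gene (horizontal axis) with its 95% confidence interval from edgeR for the 3 comparisons, in colour, with dotted lines at the fold limit of 1. The intervals of IMQ+XYF against VAS+H2O lie below 0 for H2-Aa, H2-Ab1, H2-Eb1, Cd74, H2-DMa and H2-DMb1, that of IMQ+XYF against IMQ+H2O only for Cd74, and none does for IMQ+H2O against VAS+H2O.

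The members varied together from library to library. Over the 15 pairs among the chains, Cd74, H2-DMa and H2-DMb1, Pearson's r of log2 CPM over the 9 libraries lay between 0.953 and 0.992, and after subtracting the group means between 0.867 and 0.988. All points share their libraries, so this is a description. The mean standardized level of the 9 members was highest in IMQ+H2O 2 (1.10) and VAS+H2O 2 (1.10) and lowest in IMQ+XYF 2 (−1.75), where the value is in SD units of each gene.

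Of 10887 other genes with a mean of at least 10 CPM, the 8 most like this mean level over the 9 libraries were Map3k3 (r = 0.972), Cd209d (0.961), Arrdc1 (0.960), Postn (0.957), Fam105a (0.951), Atp13a2 (0.940), Dct (0.935) and Csf1r (0.927). Without IMQ+XYF 2 and IMQ+H2O 2, the libraries farthest from the median, their r lay between 0.894 for Fam105a and 0.981 for Arrdc1. Cd209d encodes a C-type lectin of myeloid cells, Csf1r the receptor for colony-stimulating factor 1 on macrophages, Postn a matrix protein of fibroblasts, and Dct an enzyme of pigment cells. By deviations from the group means the 8 were Slco2b1 (r = 0.984), Ppard (0.982), Ppme1 (0.975), Fam105a (0.973), Rap2b (0.972), Abhd17b (0.970), Malt1 (0.967) and Nov (0.962).

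Of the other class II genes of the locus, H2-Ob, which encodes the beta chain of H2-DO, read 0.898, 1.47 and 1.14 CPM in VAS+H2O, 0.172, 0.388 and 0.293 CPM in IMQ+H2O, and 0.224, 0.447 and 0.438 CPM in IMQ+XYF. Every imiquimod library was below every control, whichever the gavage. The change by imiquimod was −2.01 ± 0.43 with an adjusted p of 0.0609, and that between IMQ+XYF and VAS+H2O −1.66 ± 0.41 with an adjusted p of 0.0753. By XYF it was 0.34 (95% confidence interval −0.63 to 1.32). B cells are a known source of H2-DO, and the 6 B cell markers summed to 1.74 to 2.45 CPM in VAS+H2O, 1.75 to 2.44 CPM in IMQ+H2O and 2.03 to 2.19 CPM in IMQ+XYF.

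H2-Eb2, a low paralogue of H2-Eb1, lay in the opposite direction. Its reads numbered 0, 5 and 0 in the VAS+H2O libraries, 12, 44 and 29 with imiquimod and water, and 45, 22 and 54 with imiquimod and XYF. The fitted change by imiquimod was 4.12 ± 1.05 (adjusted p = 0.0864) and that between IMQ+XYF and VAS+H2O had a 95% confidence interval of 1.63 to 6.37 (adjusted p = 0.0882), and both rest on control libraries at or near 0, where the fitted fold depends on the prior count. In counts H2-Eb2 stayed far below H2-Eb1, with at most 1.07 CPM in any library. It shares no 50-base stretch with H2-Eb1 in annotated transcripts.

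Of the 7 factors that bind the X and Y boxes none was called in any comparison. Creb1, which binds within the X box region, read 51.0, 59.1 and 61.8 CPM in VAS+H2O, 40.3, 21.2 and 35.5 CPM in IMQ+H2O, and 58.2, 57.1 and 58.9 CPM in IMQ+XYF. The IMQ+H2O libraries lay below both other groups. The change was −0.83 ± 0.21 by imiquimod (unadjusted p = 0.00325, adjusted p = 0.0838) and 0.85 ± 0.21 by XYF (unadjusted p = 0.00281, adjusted p = 0.360), and the lowest library, IMQ+H2O 2, was the one with the highest class II level of its group.

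Nfyc, an NF-Y subunit, had a fitted change of 0.30 ± 0.12 by imiquimod (adjusted p = 0.200), and Nfyb, another, of 0.23 ± 0.10 by XYF (adjusted p = 0.417). Nfya, Rfx5, Rfxap and Rfxank had changes between −0.25 and 0.15 in the 3 comparisons. Rfx5, the RFX subunit that contacts the X box, read 14.7 to 25.3 CPM over the 9 libraries.

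Among the regulators upstream of Ciita, Spi1 was called. Spi1 encodes PU.1, which acts on the myeloid promoter of Ciita, and it read 23.7, 25.4 and 18.1 CPM in VAS+H2O, 36.5, 50.7 and 53.2 CPM in IMQ+H2O, and 36.6, 31.0 and 37.3 CPM in IMQ+XYF. It rose by 1.06 ± 0.18 by imiquimod (adjusted p = 0.0342), and had a fitted change of −0.42 ± 0.18 by XYF (adjusted p = 0.414). The call was lost when VAS+H2O 1, 2 or 3, IMQ+H2O 2 or 3, or IMQ+XYF 3 was left out, with adjusted p of 0.0781, 0.0844, 0.107, 0.114, 0.136 and 0.0515 in that order. Irf4, a factor of dendritic and B cells, had a fitted change of −1.92 ± 0.59 between IMQ+XYF and VAS+H2O (adjusted p = 0.132), while Irf8 and Prdm1 had changes between −0.32 and 0.12.

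The interferon-gamma route to Ciita held 8 genes, of which 7 were tested and 0 called in each comparison. Ifng itself had at most 5 counts in any library. Irf1 had a fitted change of −0.67 ± 0.31 by imiquimod and Socs1 of −0.43 ± 0.20, with adjusted p of 0.259 and 0.248. Ifngr2 had a fitted change of 0.32 ± 0.15 by imiquimod and of −0.24 ± 0.15 by XYF, and the kinase gene Jak1 of 0.18 ± 0.13 between IMQ+XYF and VAS+H2O.

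The 9 genes of antigen processing gave no call either. Ctsz, a lysosomal carboxypeptidase, had a fitted change of 0.53 ± 0.14 by imiquimod (adjusted p = 0.0951), Lgmn, the asparaginyl endopeptidase, of 0.65 and Ifi30, a thiol reductase of lysosomes, of 0.55 ± 0.17 (adjusted p = 0.128). Cst3, the cathepsin inhibitor cystatin C, had a fitted change of −0.65 ± 0.19 (adjusted p = 0.115). Ctss, the cathepsin that trims the invariant chain, had a fitted change of −0.56 ± 0.27 by XYF (adjusted p = 0.450), where the groups did not overlap. The list's median change by imiquimod was 0.24, on the other side of 0 from that of the presentation genes.

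Among the genes of class II turnover and its partners, March1 encodes the ligase that marks class II for degradation. It read 2.94, 5.20 and 2.84 CPM in VAS+H2O, 6.03, 10.0 and 8.11 CPM in IMQ+H2O, and 5.23, 3.40 and 5.83 CPM in IMQ+XYF. IMQ+H2O lay above both other groups, with a change of 1.14 ± 0.32 by imiquimod (adjusted p = 0.104) and of −0.74 ± 0.31 by XYF (unadjusted p = 0.0436, adjusted p = 0.416).

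Cd4, the co-receptor for class II on T cells and also present on some myeloid cells, was called. It read 7.62, 13.3 and 6.97 CPM in VAS+H2O, 4.27, 7.06 and 3.24 CPM in IMQ+H2O, and 2.24, 3.17 and 2.91 CPM in IMQ+XYF, the last below all others. It fell by 1.74 on the log2 scale between IMQ+XYF and VAS+H2O (adjusted p = 0.0475). This call was kept only without IMQ+XYF 2 among the 9 fits that leave out a library, in which the adjusted p ran from 0.0461 to 0.144. Of the T cell markers 0 of 7 were called in that comparison, and their median change was 0.02. Cd80, a co-stimulatory ligand, had a fitted change of 1.47 ± 0.47 by imiquimod (adjusted p = 0.135), Cd83, a surface protein of mature dendritic cells, of −1.60 ± 0.66 between IMQ+XYF and VAS+H2O (adjusted p = 0.244), and Cd86 of −0.36 ± 0.43 by XYF.

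**Figure D3:**
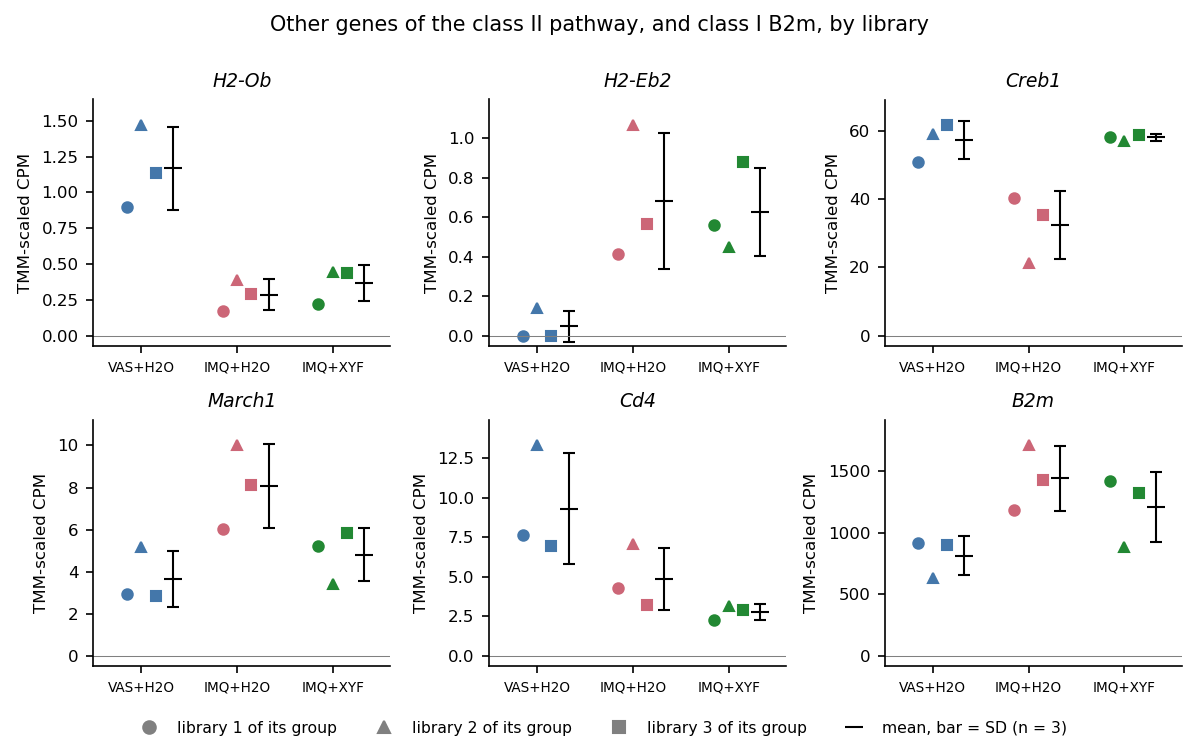
TMM-scaled CPM of H2-Ob, H2-Eb2, Creb1, March1, Cd4 and B2m (vertical axes, separate scales, in scaled CPM) in the 9 libraries by group, with symbols as for the plot of the 9 genes and the mean and SD of 3 libraries in black. H2-Ob lies lower and H2-Eb2 higher in all imiquimod libraries than in all controls, and Creb1 is lowest and March1 highest in IMQ+H2O.

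Class I presentation, the counterpart for CD8+ T cells, was measured beside it. B2m, the shared light chain, read 913, 629 and 901 CPM in VAS+H2O, 1186, 1713 and 1426 CPM in IMQ+H2O, and 1423, 886 and 1324 CPM in IMQ+XYF. By imiquimod B2m had a fitted change of 0.82 ± 0.23 (adjusted p = 0.103), H2-D1 of 0.64 ± 0.22 (0.154) and H2-K1 of 0.62 ± 0.28 (0.243), with IMQ+H2O above VAS+H2O without overlap in each. These were 3 of the 9 class I genes, against 3381 of all 22430 tested genes. Of the 9, 5 had a fitted change above 0 by imiquimod and 4 below, with a median of 0.08. None of the 9 class I genes was called in any comparison, and Psmb8, a subunit of the immunoproteasome, and the peptide transporter Tap1 had fitted changes of −0.30 ± 0.34 by XYF and −0.49 ± 0.34 between IMQ+XYF and VAS+H2O. H2-Ab1 per H2-K1 was 1.17 ± 0.27 (SD, n = 3) in VAS+H2O, 0.601 ± 0.042 in IMQ+H2O and 0.508 ± 0.108 in IMQ+XYF, and the lowest control, at 0.997, lay above the highest imiquimod library, at 0.638. This ratio sets a gene with a fitted change below 0 by imiquimod against a gene with a change above 0. It was chosen with earlier results of these data known and is a description.

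Markers of cells that carry class II were followed beside these values. The 10 dendritic cell markers had a median change of 0.07 by imiquimod, −0.33 by XYF and −0.61 between IMQ+XYF and VAS+H2O, and summed to 81.2 to 141 CPM, 74.9 to 144 CPM and 59.9 to 106 CPM in the 3 groups. Ccr7, of migrating dendritic cells, rose from 0.873, 0.917 and 1.11 CPM to 3.38, 11.1 and 6.71 CPM, by 2.86 by imiquimod (adjusted p = 0.0314), and stood at 8.59, 3.99 and 8.77 CPM in IMQ+XYF, where it was 2.87 above the control (adjusted p = 0.0309). The first call was lost when VAS+H2O 1, 2 or 3 or IMQ+H2O 2 or 3 was left out, with adjusted p between 0.0854 and 0.108, and the second when VAS+H2O 1, 2 or 3, IMQ+H2O 3 or IMQ+XYF 1 or 3 was, with adjusted p between 0.0535 and 0.121. Xcr1, of cross-presenting dendritic cells, read 0.834 to 0.938 CPM in VAS+H2O and 0.293 to 0.471 CPM in the 6 imiquimod libraries, a change of −1.27 by imiquimod (adjusted p = 0.0723). Clec9a, another marker of the list, lay in the other direction at 0.26 ± 0.55 by imiquimod (adjusted p = 0.820). Of the 10 markers 5 had a fitted change above 0 by imiquimod and 5 below. Between IMQ+XYF and VAS+H2O 3 lay above 0 and 7 below. There 3 were lower at an unadjusted p under 0.05, against 8.76% of all genes: Xcr1, Cd209a (−1.20) and Mgl2 (−0.84). Only Ccr7, 1 of 10, was higher at that limit, against 2148 of all 22430 genes. Over the 9 libraries r with the mean level of the members ran from −0.330 for Ccr7 to 0.939 for Cd209a. No marker of the list was at 0 in any library, and Clec9a, at 0.285 to 2.51 CPM, was among the lowest. Their part in the class II values was not tested.

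The 11 macrophage markers summed to 699 to 1020 CPM in VAS+H2O, 973 to 1410 CPM in IMQ+H2O and 681 to 937 CPM in IMQ+XYF. None was called, while 6 of 11 had an unadjusted p under 0.05 with higher levels by imiquimod (median change 0.60), against 2266 of all 22430 tested genes. By XYF 4 of 11 had one with lower levels (median −0.56), against 5.39% of all genes. Within the list Csf1r and Cd68 took different courses, and both were picked here after their values were seen. H2-Ab1 per Csf1r was 3.16 ± 0.57 in VAS+H2O, 3.12 ± 0.42 in IMQ+H2O and 3.22 ± 0.18 in IMQ+XYF (SD, n = 3 each). Csf1r is among the 8 genes most like the members over these libraries, so that a level ratio to it follows from that choice, and 8 of the 11 markers had a fitted change above 0 by imiquimod, where that of Csf1r was below 0. H2-Ab1 per Cd68 was 5.06 ± 0.92, 2.90 ± 0.18 and 3.06 ± 0.53 in the same order, with every control above every other library. The 4 monocyte markers summed to 28.4 to 39.4 CPM in VAS+H2O and 73.6 to 142 CPM in IMQ+H2O, and the 6 neutrophil markers, cells with little class II, to 6.65 to 22.1 CPM and 204 to 643 CPM.

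**Figure D4:**
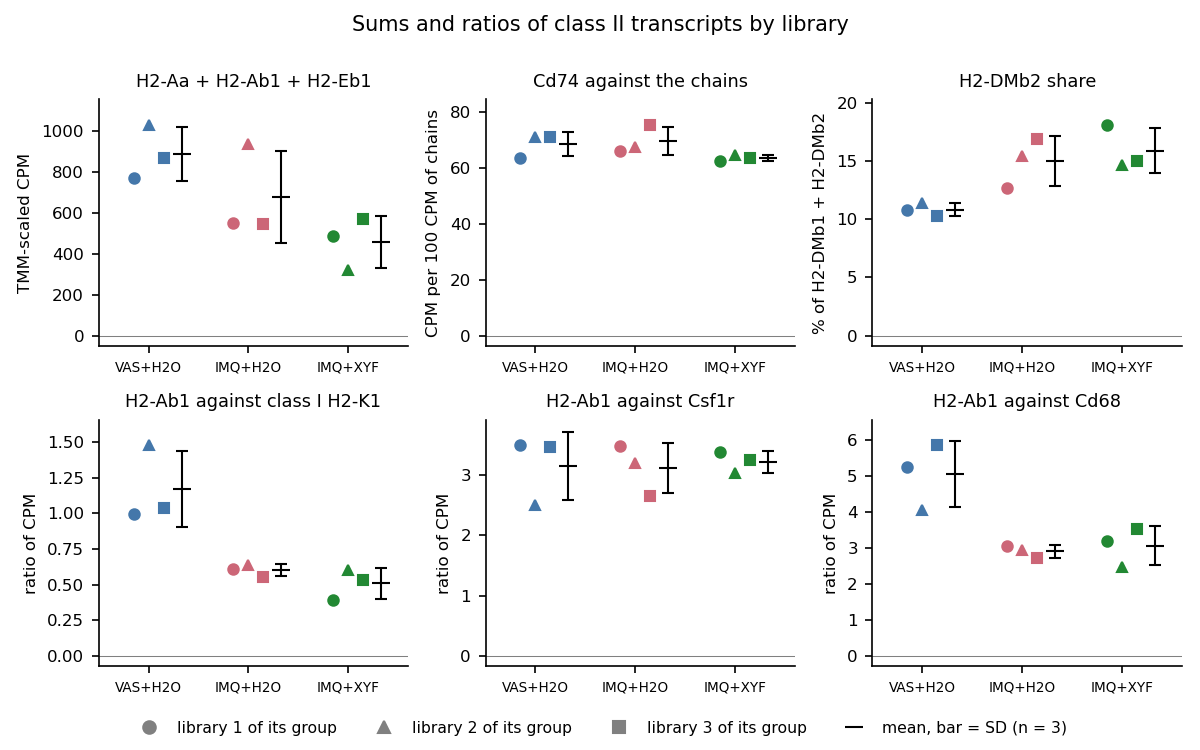
Sum of the 3 chains in TMM-scaled CPM, Cd74 per 100 CPM of the chains, the H2-DMb2 share in percent, and H2-Ab1 divided by H2-K1, Csf1r or Cd68 (vertical axes), by library and group, with the mean and SD of 3 libraries in black. The ratio to Csf1r, a gene of like pattern, lies between 2.50 and 3.50 in all groups, and the ratios to H2-K1 and Cd68 are higher in every control than in every imiquimod library.

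The 6 keratinocyte markers summed to 3018 to 5735 CPM in VAS+H2O, 1981 to 2978 CPM in IMQ+H2O and 3616 to 13903 CPM in IMQ+XYF, the last value being IMQ+XYF 1. The summed levels of IMQ+XYF and IMQ+H2O did not overlap. Of the single markers 2 of 6 were higher in IMQ+XYF without overlap, against 2067 of all 22430 tested genes. All 6 had an unadjusted p under 0.05 with higher levels by XYF, against 1424 of the 22430 genes. Their median change was 1.41, and none was called. The Langerhans cell marker Cd207 was 9.15 CPM in IMQ+XYF 1 and 1.21 to 6.20 CPM elsewhere. The skeletal muscle markers had a median change of −1.71 by XYF, and the 4 endothelial markers one of −0.61. Of the muscle markers 4 of 5 were lower at an unadjusted p under 0.05, against 5.39% of all genes. In the cartilage list Col2a1 fell by 2.70 by imiquimod (adjusted p = 0.0247). Without IMQ+XYF 1 the median change of the 9 members by XYF was −0.54 and between IMQ+XYF and VAS+H2O −0.95. In that fit 0 members were lower at an unadjusted p under 0.05 by XYF, against 3.61% of all genes. Between IMQ+XYF and VAS+H2O there were 6, against 7.44%. The remaining IMQ+XYF libraries, at 3616 and 4875 CPM of the keratinocyte markers, still lay above every IMQ+H2O library. The part of tissue make-up in the class II values was not tested.

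**Figure D5:**
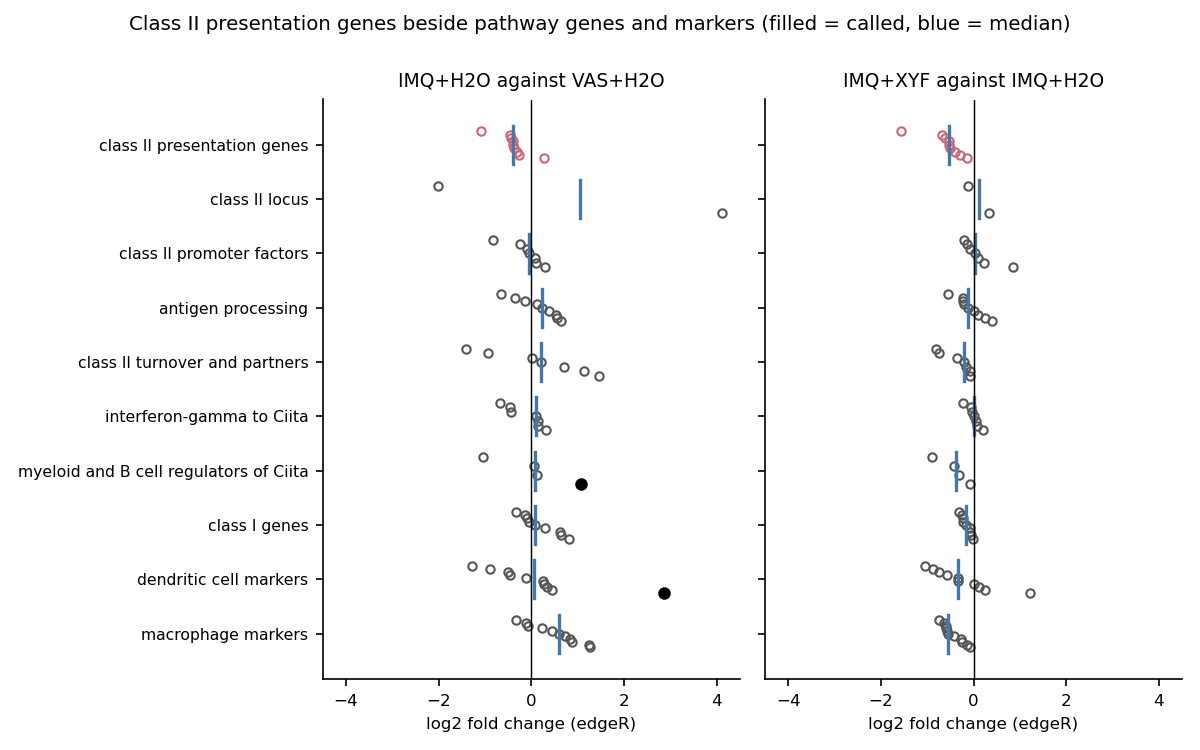
Log2 fold change from edgeR (horizontal axis) of each tested gene of the class II presentation list and of 9 other lists, by imiquimod on the left and by XYF on the right, with filled points for called genes and a blue bar at the median. The presentation genes sit mostly left of 0 in both panels, while macrophage markers sit right of 0 by imiquimod (median 0.60) and left of it by XYF (median −0.56).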

How the data were processed

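The authors deposited 1 table of whole-number read counts per Ensembl gene for the 9 libraries, with no normalization. Their sources name FastQC, STAR 2.5, Cuffnorm and DESeq 1.22.1 (the submitters' processing notes) and the genome build GRCm38. The counting tool, its use of the strand and its treatment of reads with several alignments were not given in the sources used here. The labels call the libraries strand-specific. Of 52550 genes, 16554 had no count.

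Counts were tested with edgeR 4.0.16 in R 4.3.3: filterByExpr left 22430 genes, libraries were scaled by TMM, and the 9 libraries were fitted together by quasi-likelihood, each group having its own coefficient (common biological coefficient of variation 0.296). Comparisons were IMQ+H2O against VAS+H2O (by imiquimod), IMQ+XYF against IMQ+H2O (by XYF) and IMQ+XYF against VAS+H2O. The limits for a call follow the study's methods, whose DESeq2 test (1.42.0 here) was an alternative. Standard errors are the absolute log2 fold change over the square root of F. The fit was tested on simulated data. Pairs of libraries of 1 group differed by more than sampling noise.

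The 9 members, 20 lists with 122 entries (120 matched by symbol, 1 by Ensembl ID, 1 as a pseudogene; 7 not tested) and the tests were chosen with earlier results of these data known. The text names all members, all genes of the locus and promoter factor lists, and of the other pathway lists each called gene and up to 3 per comparison with the smallest p. Some genes that this rule covers are not reported here. Genes of like pattern are the 8 with the highest r. Markers are named where called or where they bear on a value. Exceptions are Chil3, S100a8, S100a9 and Csf3r, which were called but enter only the summed levels. Gene positions and exons come from GENCODE vM21 (GRCm38), promoters from RefSeq.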

Additional observations from a re-analysis of the deposited data

How the results depend on the processing

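None of the 9 members was called by imiquimod or by XYF in any of the alternatives, and between IMQ+XYF and VAS+H2O only DESeq2 called any, 2 of them. Of 427 member values under 16 settings, 417 kept their direction and their side of the threshold. DESeq2 called 5 pathway genes and 945 genes in all by imiquimod (1 and 223 in edgeR), 223 in all by XYF (2), and 5 and 701 between IMQ+XYF and VAS+H2O (1 and 270). With only the 6 libraries of a comparison there were 2 pathway genes and 496 in all by imiquimod, 1 in all by XYF, and 0 and 33 between IMQ+XYF and VAS+H2O. The stricter filter gave 1 in all by XYF, and it removed H2-Oa. Without a filter 0 pathway genes were called between IMQ+XYF and VAS+H2O, and without a limit on the fold change 453 genes in all were.

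The replicate numbers of the labels do not mark a shared animal, and same-numbered libraries had correlations of deviations between −0.183 and 0.125. With the replicate block 0 pathway genes and 86 in all were called by imiquimod, 0 in all by XYF, and 0 and 54 between IMQ+XYF and VAS+H2O, with no member called.

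Leaving out 1 library gave 0 to 2 pathway genes and 25 to 455 in all by imiquimod, 0 to 4 in all by XYF, and 0 to 1 and 12 to 592 between IMQ+XYF and VAS+H2O. Directions reversed for the members with weak or overlapping values only. For H2-DMb2 by imiquimod the change ran from −9.267e-04, without IMQ+H2O 2, to 0.46. By XYF it ran from −5.92 to 4.43 for H2-Oa, the latter without IMQ+H2O 2 and so against libraries at 0, and from −0.51 to 0.28 for Ciita, with 0.19 without IMQ+H2O 2 and 0.28 without IMQ+XYF 2. For H2-DMb2 between IMQ+XYF and VAS+H2O it ran from −0.17 to 0.23, above 0 without VAS+H2O 2, IMQ+H2O 3 or IMQ+XYF 2, and it was 0.0026 in DESeq2. The cause of these differences was not tested. For H2-Aa and Cd74 between IMQ+XYF and VAS+H2O the change lay between −1.27 and −0.79 and between −1.26 and −0.83 in all 16 settings.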
